A study of Mus musculus with 2 samples.

Results

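Mir143 and Mir145a are neighbouring microRNA (miRNA) genes, taken as a pair by name and found in the tables by their Ensembl identifiers, ENSMUSG00000065445.3 and ENSMUSG00000065592.2. They are 2 of the 2202 miRNA genes that were counted. The counts come from small RNA sequencing of C2C12, a mouse myoblast line of C3H origin whose cells divide as single myoblasts and form multinucleate myotubes once serum is lowered. The labels give 2 biological replicates of 1 group, both from the same donor of the line, and the libraries hold RNA shorter than 30 nucleotides. No treatment, culture stage or time is stated, and the only contrast is between the libraries themselves. Both replicates are the same immortal line, so the differences below measure the spread between these samples and not between animals.

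A miRNA is cut from a hairpin in a longer primary transcript and represses mRNAs that pair with its seed, the bases near its 5′ end. miR-143 and miR-145 are usually described as a single transcription unit, the genes of which are switched on by serum response factor and myocardin. They are known as the miRNAs most typical of smooth muscle, where miR-145 represses Klf4 and Klf5 and miR-143 represses Elk1, and together they favour the contractile state. Both are also known from fibroblasts and other mesenchymal cells.

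On mm10, Mir143 spans positions 61649196 to 61649258 of chromosome 18 and Mir145a spans positions 61647825 to 61647894, both on the minus strand. Mir143 is therefore the upstream hairpin, and 1301 bases separate it from Mir145a. The GENCODE M21 annotation places 0 of the 2 hairpins inside a host gene on their strand. In it the long noncoding RNA Carmn (61649625 to 61665537, minus strand), which is known from heart and smooth muscle, ends 366 bases before Mir143. RefSeq on the same build draws Carmn from 61645878 to 61665538, a span that holds both hairpins, so whether the pair is intergenic or lies within Carmn depends on the annotation. On the plus strand Bvht, a long noncoding RNA of cardiac mesoderm, ends 352 bases short of Mir145a in GENCODE. The Mir143 hairpin is 63 bases long with a GC content of 55.6% and a predicted folding energy of -36.9 kcal/mol, and the Mir145a hairpin is 70 bases long with a GC content of 48.6% and a folding energy of -30.3 kcal/mol. Over the 556 genes with at least 10 reads in both libraries together, the medians were 80 bases, 52.3% and -34.1 kcal/mol.

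The hairpins of the pair are distinct in sequence within the annotation. The longest stretch that Mir143 shares with any other annotated miRNA gene is 11 bases, and for Mir145a it is 17 bases, shared with Mir145b. Neither hairpin shares a stretch of 20 bases with a transcript of any other gene in GENCODE M21. Mir145b, a relative of Mir145a elsewhere on chromosome 18, had 5 reads in replicate 1 and 4 reads in replicate 2. No read fell on the strand opposite to Mir143 or Mir145a in either library, and counting without regard to strand gave the same numbers for both genes.

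The reads on miRNA genes, which set the scale of all levels, numbered 27661907 in replicate 1 and 15025315 in replicate 2. These are 50.3% and 61.2% of the reads in the tables, and 33.4% and 22.8% were reads that mapped to several places. Mir21a, a miRNA abundant in many proliferating cells, took 230571 of every 1000000 of these reads in replicate 1 and 535157 in replicate 2. Levels are given on this scale, as counts per 1000000 reads (CPM). They are shares of a fixed total, so the larger share of Mir21a in replicate 2 leaves less for all other genes together.

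Mir143 was among the 4 most abundant miRNA genes of each library. It had 1696910 reads in replicate 1 and 541236 reads in replicate 2. This is 61345 CPM, or 6.13% of the counts (exact 95% Clopper-Pearson interval 6.13 to 6.14), in replicate 1, and 36022 CPM, or 3.60% (3.59 to 3.61), in replicate 2. The mean was 48683 ± 17906 CPM (SD, n = 2). It ranked 4 in replicate 1, 3 in replicate 2 and 4 by the mean. These intervals cover counting error only, and the spread between the libraries was far wider than they are. The ranks leave out reads that mapped to several places. A gene that shares a stretch of 20 bases with another miRNA gene may therefore stand higher than ranked, also above Mir143.

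Mir145a was present at a moderate level. It had 42335 reads in replicate 1 and 20472 reads in replicate 2, which is 1530.4 CPM (0.153% of the counts, interval 0.152 to 0.155) and 1362.5 CPM (0.136%, interval 0.134 to 0.138). The mean was 1446 ± 119 CPM (SD, n = 2). It ranked 62 in replicate 1 and 54 in replicate 2, and 61 by the mean. Its range lay wholly below that of 49 genes, of 320 that had 1 CPM or more in each library, the level taken here as detected.

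**Figure D1:**
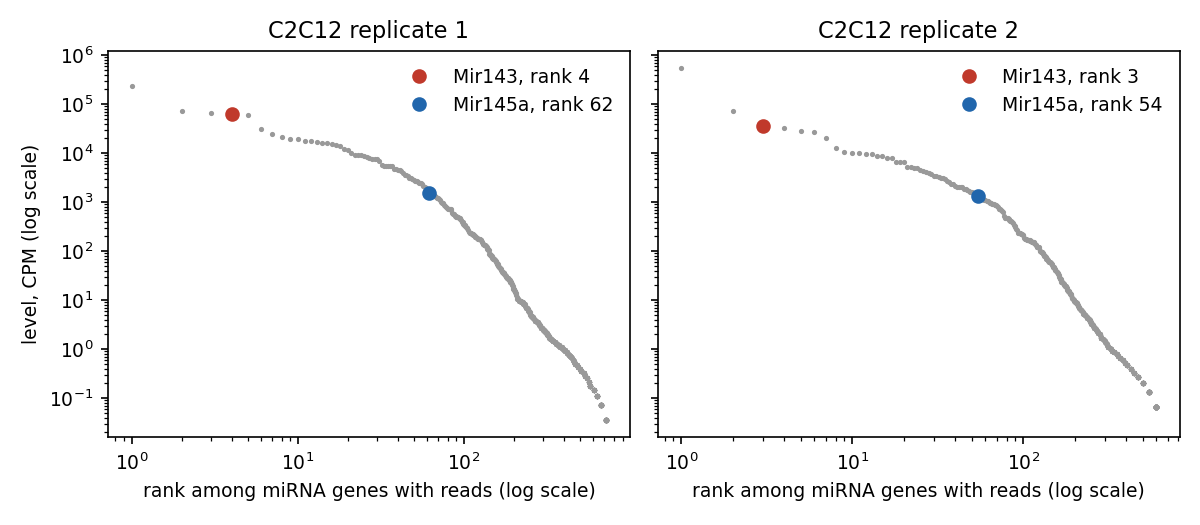
Level in CPM against rank for every miRNA gene with reads in replicate 1 (left) and replicate 2 (right), both axes logarithmic. Mir143 (red) lies at ranks 4 and 3 with 61345 and 36022 CPM, and Mir145a (blue) lies at ranks 62 and 54 with 1530.4 and 1362.5 CPM.

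Few genes shared the range of Mir143. Besides Mir143, the range from 36022 to 61345 CPM was reached by 3 genes, Mir22, Mir23a and Mirlet7i, and only Mir21a lay wholly above it. Mir22, a miRNA raised in hypertrophy of heart muscle and in senescent fibroblasts, had 60486 and 72725 CPM in replicates 1 and 2. Mir23a, encoded in a cluster with Mir27a and Mir24-2, had 72075 and 31836 CPM, and Mirlet7i, of the let-7 family of differentiation-linked miRNAs, had 66493 and 26931 CPM. Their order relative to Mir143 changed from library to library, so ranks 2 to 5 do not differ beyond the spread of the libraries. Mir31, next in the order, had 31179 and 28011 CPM, and its range did not meet that of Mir143.

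The mature miRNAs usually taken as the main products of these leading genes and of Mir21a are shown because they make up the set against which Mir143 is ranked. The sequences are from RefSeq (GRCm38.p6), 5′ to 3′, and capitals mark the seed, bases 2 to 8. The 4 miRNAs have 4 different seeds. The deposited counts are per hairpin and do not tell its 2 arms apart.
mmu-miR-21a-5p: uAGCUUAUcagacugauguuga
mmu-miR-22-3p: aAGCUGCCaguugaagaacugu
mmu-miR-23a-3p: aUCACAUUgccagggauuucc
mmu-let-7i-5p: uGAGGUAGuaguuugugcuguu

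By closeness of the levels in both libraries (Euclidean distance over log2(CPM + 1), 2 libraries), the genes most like Mir143 were Mir23a at a distance of 0.29, Mirlet7i at 0.44 and Mir22 at 1.01. The genes most like Mir145a were Mir425 at 0.26, Mir15b at 0.30 and Mir298 at 0.43. The surroundings of Mir145a in the order were crowded. The ranges of 17 other genes, with mean ranks between 49 and 68, overlapped that of Mir145a. All 3 genes directly above it, Mir298, Mir425 and Mirlet7f-2, and all 3 directly below it, Mir107, Mir188 and Mir15b, were among them. Mir425 had 1512 and 1631 CPM in replicates 1 and 2, while Mir107 had 1899.6 and 962 CPM. The place of Mir145a within this band is not resolved by 2 libraries.

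On chromosome 18 the pair held most of the miRNA reads. Mir143 took 82.2% of the reads on the 57 miRNA genes of the chromosome in replicate 1 and 82.0% in replicate 2. Mir145a took 2.05% and 3.10%. Most of the remainder fell on Mir378a, which is carried by the metabolic gene Ppargc1b 249924 bases from the pair, with 15.6% and 14.8%. Gm25301, annotated over Mir378a on the plus strand, had 0 reads on its own strand in both libraries.

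The hairpins of the pair were far from equal in reads. Mir143 had 40.1 reads for each read of Mir145a in replicate 1 (exact 95% interval 39.7 to 40.5) and 26.4 in replicate 2 (26.1 to 26.8), with a geometric mean of 32.6. Mir145a thus supplied 2.43% of the reads of the pair in replicate 1 and 3.64% in replicate 2. A read of this size class covers a mature miRNA whatever the length of its hairpin, so counts were not divided by length. Per base of annotated hairpin, the ratio was 44.5 in replicate 1 and 29.4 in replicate 2.

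This ratio needs no scaling between the libraries, and it differed between them. It was 1.52-fold higher in replicate 1, a log2 shift of 0.60 with a counting standard error of 0.01. Fisher's exact test (two-sided) with Benjamini-Hochberg adjustment gave an adjusted p of 0 at the precision of the software. Such a call is common here. Of 82 pairs of consecutive hairpins on the same strand within 10 kb, each gene with at least 10 reads, the same test called 58 (70.7%). Among the 35 pairs with both genes at a mean CPM of at least 100 it called 34 (97.1%). The test compares libraries, not conditions, and its yardstick is counting noise alone.

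By size, the shift of Mir143 over Mir145a was ordinary among those 35 pairs. It ranked 16, with 15 pairs shifted more and 19 shifted less, and the median absolute shift was 0.52 on the log2 scale. The largest shifts belonged to Mir298 and Mir296 at -2.49, Mir15a and Mir16-1 at 1.57, and Mir30d and Mir30b at -1.27. The smallest belonged to Mir34b and Mir34c at 0.05, Mirlet7f-1 and Mirlet7d at -0.08, and Mir501 and Mir500 at 0.09. A shift of about 0.60 is therefore within what neighbouring hairpins of these libraries show.

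The imbalance in reads was large. Reads of different miRNAs were not calibrated against each other, so these ratios are of reads and not of molecules. The median pair differed 3.35-fold between its hairpins, against 32.6-fold for Mir143 and Mir145a, which ranked 6 of the 35 by this measure. The 5 pairs above it, named after their values were seen, were Mir99a with Mirlet7c-1, Mirlet7c-2 with Mirlet7b, Mir29b-1 with Mir29a, Mir322 with Mir503, and Mir27b with Mir24-1. In 4 of these, all but Mir322 with Mir503, at least 1 hairpin shares a stretch of 20 bases with another miRNA gene, so its level is uncertain. Among the 24 pairs without such copies, Mir143 and Mir145a ranked 2, after Mir322 and Mir503. The upstream hairpin was the higher one in 15 of these 24 pairs.

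**Figure D2:**
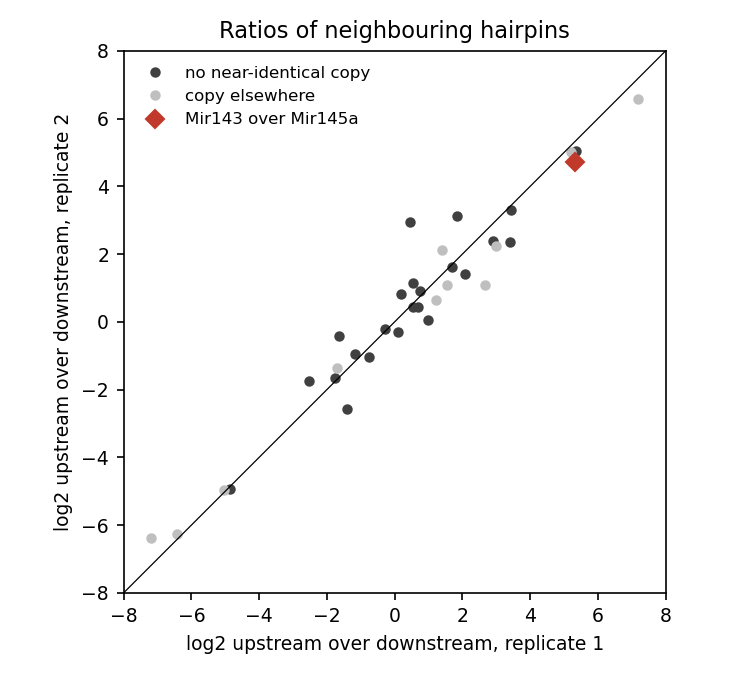
Log2 ratio of the upstream over the downstream hairpin in replicate 1 (horizontal) and replicate 2 (vertical) for the 35 neighbour pairs with both genes at a mean CPM of at least 100, with the line of equality. Mir143 over Mir145a (red) lies at 5.32 and 4.72, at the high end of the ratios. It is below the line, as is every pair with a positive shift.

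The direction of change of each member between the libraries depended on the scaling. After trimmed-mean (TMM) scaling, which is less sensitive to the share of Mir21a, Mir143 stood at 44943 scaled CPM in replicate 1 and 49167 in replicate 2, a log2 ratio of replicate 1 over replicate 2 of -0.13 with a counting standard error of 0.002. Mir145a stood at 1121 scaled CPM in replicate 1 and 1859.7 in replicate 2, a log2 ratio of -0.73 with a counting standard error of 0.01. In an exact binomial test of each gene's reads (two-sided, Benjamini-Hochberg over 556 genes), both were called lower in replicate 1, each with an adjusted p of 0 at the precision of the software. The test called 24.6% of all genes lower and 16.9% higher in replicate 1, 41.5% in either direction, and it calls abundant genes most readily.

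In size the members stood apart from each other. The TMM difference of Mir143 was 1.09-fold, and 28.3% of the 138 genes that averaged 100 CPM or more differed by less. The difference of Mir145a was 1.66-fold, and 79.7% of these genes differed by less. The median absolute log2 ratio of these genes was 0.29. The common coefficient of variation of the libraries, 34.4%, implies an SD of 0.70 for a log2 ratio of 2 replicates. With TMM the ratio of Mir143 lay well inside this SD, and that of Mir145a was just outside it. This placement depends on the scaling. The SD was estimated with TMM, and each other scaling moves the log2 ratios of all genes by a shared amount. Mir145a was at -0.67 with DESeq2 size factors, -0.56 without Mir21a in the totals and 0.17 by library totals. Mir143 was at 0.77 by library totals, where the median of all tested genes was 0.81. Relative to that median, Mir143 was at -0.04 and Mir145a at -0.64 under every scaling, both inside the SD.

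**Figure D3:**
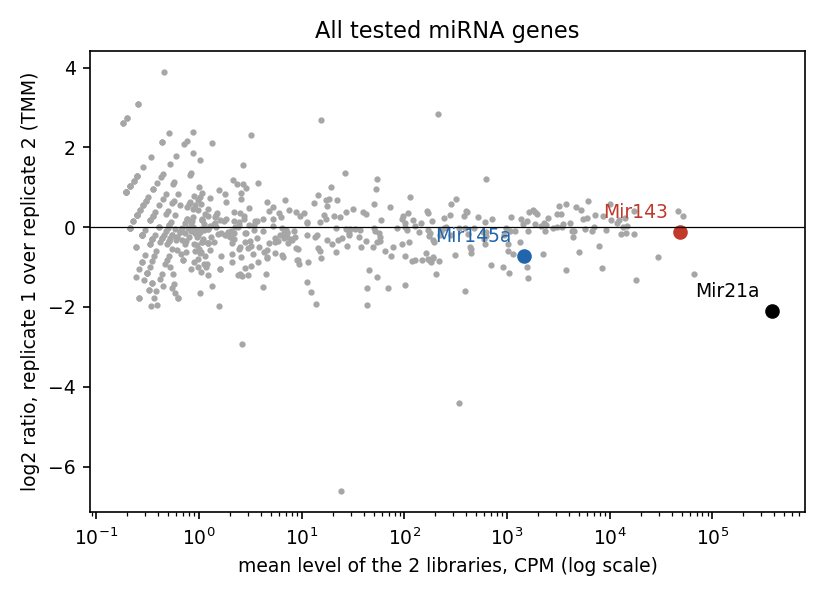
Log2 ratio of replicate 1 over replicate 2 after TMM scaling against the mean level in CPM (log scale) for the 556 tested genes. Mir143 (red) lies near 0 at -0.13, Mir145a (blue) lies at -0.73, and Mir21a (black) lies at -2.11.

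With library totals in place of TMM, both directions turned round. Mir143 was then 1.70-fold higher in replicate 1 (log2 ratio 0.77) and Mir145a 1.12-fold higher (0.17), and both passed the test. This scaling called 59.4% of all genes, 54.7% higher and 4.68% lower in replicate 1. It moved every log2 ratio by 0.90, and the median of all tested genes was 0.81, against -0.09 with TMM. With Mir21a left out of the totals, Mir143 was 1.03-fold higher in replicate 1 (0.04) and Mir145a 1.47-fold lower (-0.56), beside 41.7% of all genes called, 24.8% higher and 16.9% lower. DESeq2 size factors gave -0.07 for Mir143 and -0.67 for Mir145a, beside 41.5% called, 19.2% higher and 22.3% lower. Relative to the median of all tested genes, which no scaling alters, Mir143 was at -0.04 and Mir145a at -0.64.

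**Figure D4:**
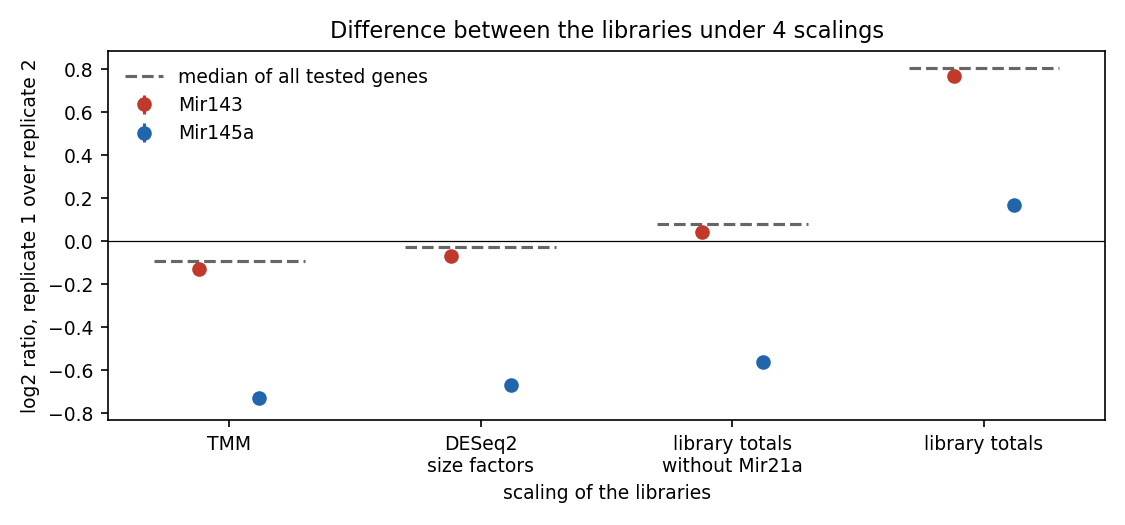
Log2 ratio of replicate 1 over replicate 2 for Mir143 (red) and Mir145a (blue) under 4 scalings, with 95% counting intervals that are smaller than the symbols, and the median of all tested genes (dashed). Mir143 runs from -0.13 with TMM to 0.77 with library totals. A change of scaling moves all genes by the same amount. The distance of 0.60 between the members, and their distances from the median, are therefore fixed.

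The list of miRNAs tied to the contractile state of smooth muscle includes the pair and was chosen with earlier results of these data known. Apart from the pair, only Mir10a and Mir204 on it have no near-identical copy, and the pair was far above both. The shares below therefore set Mir143 beside few other genes. Of 8 genes on this list, Mir143 made up 97.5% of the summed level in replicate 1 and 96.3% in replicate 2. Without the pair, the list summed to 17.0 CPM in replicate 1 and 8.32 CPM in replicate 2. Mir10a, reported in smooth muscle differentiation, had 14.9 and 7.45 CPM, and Mir204, reported to restrain smooth muscle proliferation, had 2.06 and 0.865 CPM. Mir1a-1, Mir133a-1 and Mir133a-2 had no reads, and Mir1a-2 had 3 reads in replicate 1 and 0 in replicate 2. These 4 genes have near-identical copies, so their counts set no limit on miR-1 and miR-133a. The shares and sums of the list carry the same limit. By TMM, 2 of the 4 tested genes of the list, Mir143 and Mir145a, were lower in replicate 1 and 0 were higher, beside 24.6% and 16.9% of all 556 genes. The median log2 ratio of the list was -0.02, against -0.09 for all 556 genes. By library totals 4 of its genes were higher and 0 lower, beside 54.7% and 4.68% of all genes, and Mir143 and Mir145a were among the 4.

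Some miRNAs tied to proliferating smooth muscle were abundant beside the pair. The list of 9 genes summed to 289564 CPM in replicate 1 and 576951 CPM in replicate 2, most of it Mir21a. Mir31 followed, and Mir221, which represses the cell cycle inhibitor p27, had 16707 and 7930.2 CPM. Others were low, down to Mir26a-1 at 8.53 and 5.99 CPM. Near-identical copies exist for 5 of the 9 genes, so their counts set no limit on those miRNAs. By TMM, 2 of the 9 genes were higher and 5 lower in replicate 1 (median -0.39), beside 16.9% and 24.6% of all genes, and by library totals 6 were higher and 1 lower, beside 54.7% and 4.68%. Abundant genes pass this test more readily, so these counts also reflect the level of the genes. Of the 10 genes on the fibroblast and matrix list, 3 were higher and 5 lower in replicate 1 by TMM (median -0.21), beside the same 16.9% and 24.6%, and 8 were higher and 2 lower by library totals, beside 54.7% and 4.68%. It was led by Mir21a and Mir22. Mir29a, a repressor of collagen genes, had 19150.5 and 10128 CPM, and Mir214, of the Dnm3os transcript, had 4603 and 2352 CPM. The list reached down to Mir199a-1 at 2.75 and 0.799 CPM, and 6 of its 10 genes have near-identical copies, with the same limit. Mir143 exceeded Mir29a 3.20-fold in replicate 1 and 3.56-fold in replicate 2.

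Markers of skeletal muscle and of endothelial, blood, epithelial and liver cells that have no near-identical copy had lower values than Mir143. Only Mir21a lay wholly above Mir143, so nearly all genes share this. Mir206, the marker of skeletal muscle, had 2559 and 1028 CPM in replicates 1 and 2, so Mir143 was 24.0-fold and 35.0-fold above it. Mir145a was at 0.598 of Mir206 in replicate 1 and at 1.32 of it in replicate 2. The skeletal muscle list of 9 genes, 3 of them detected, summed to 2653 and 1051 CPM, with Mir133b second at 88.0 and 20.4 CPM, but 5 of the 9, Mir133b and the Mir1a and Mir133a genes, have near-identical copies, so the sum and the number detected set no limit on miR-1 and miR-133. By TMM 3 of its 5 tested genes were higher and 0 lower in replicate 1 (median 0.42), beside 16.9% and 24.6% of all genes, and by library totals 3 and 0, beside 54.7% and 4.68%. The endothelial list (2 genes, both detected) summed to 222 and 139 CPM, nearly all from Mir126a at 213 and 134 CPM. The blood list (5 genes) summed to 220.3 and 126 CPM, with 2 of 5 genes detected, led by Mir142 at 215 and 122 CPM and Mir150 at 3.80 and 1.73 CPM. On the CPM scale these sums, like Mir143, were lower in replicate 2. So were most genes, as the median log2 ratio of all tested genes by library totals was 0.81. The part of endothelial or blood cells in the level of the pair was not tested.

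The epithelial list (6 genes, 3 detected) summed to 21.7 CPM in replicate 1 and 17.2 CPM in replicate 2, led by Mir205 at 9.25 and 8.79 CPM and Mir200c at 8.50 and 5.06 CPM. The hepatocyte Mir122 had 3.90 and 1.26 CPM. The 6 neural genes, all with near-identical copies, had 2 reads in replicate 1, both on Mir9-3, and 0 in replicate 2. By TMM 1 of the 2 endothelial, 1 of the 5 tested blood and 2 of the 5 tested epithelial genes were lower in replicate 1 and 0 of each were higher, beside 24.6% and 16.9% of all genes. By library totals 0 were lower and 2 of the endothelial, 2 of the blood and 1 of the epithelial genes were higher, beside 4.68% and 54.7% of all genes. Medians of these lists by TMM were -0.19, -0.19 and -0.75. Mir122 was not called in either direction by TMM (0.70) and was higher in replicate 1 by library totals.

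**Figure D5:**
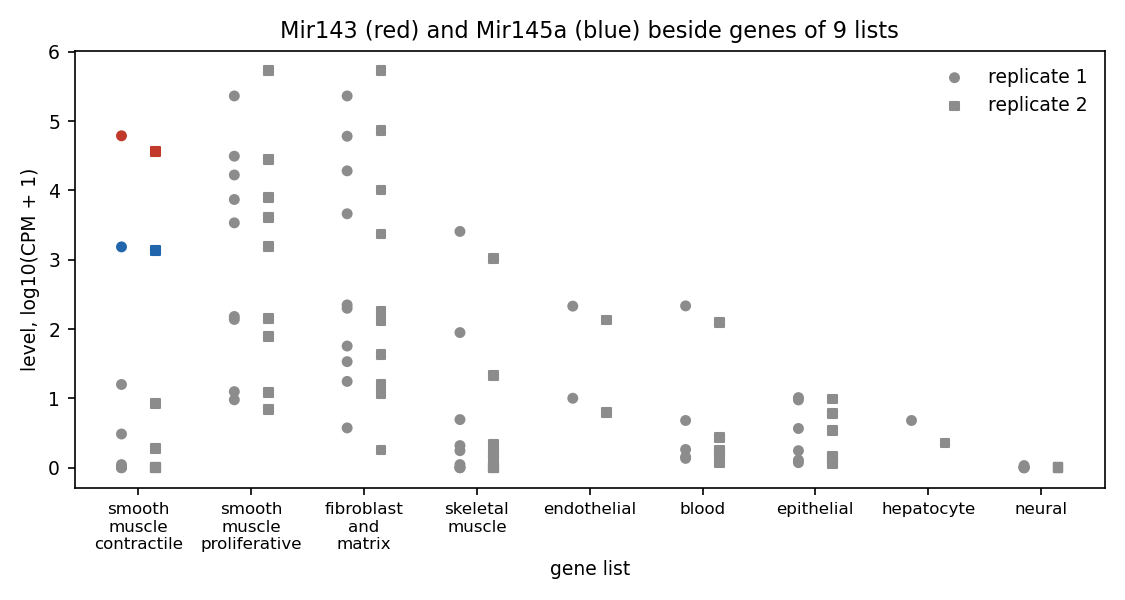
Level as log10(CPM + 1) of each gene of 9 lists, with replicate 1 as circles on the left and replicate 2 as squares on the right of each list. Mir143 (red) and Mir145a (blue) stand above all other genes of the contractile list, 4 of which have near-identical copies. The markers of endothelial, blood, epithelial and liver cells lie below both. The neural genes all have near-identical copies, so their place near 0 sets no limit on those miRNAs.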

How the data were processed

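Small RNA of C2C12 cells was sequenced in 2 libraries. The deposited tables hold whole-number counts of reads per miRNA gene in 3 columns, on mm10 with GENCODE M21, per the deposited readme. That the columns count either strand, same strand and opposite strand was read from their layout and values. The labels point to an adapter-trimming protocol. Aligner and counter: not given in the sources used here. Rows that name no gene (49.7% and 38.8% of reads in replicates 1 and 2) stayed out of totals and tests.

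From these counts, CPM were computed per 1000000 same-strand counts. Identifiers (2202) were matched to GENCODE M21, and folding energies came from RNAfold 2.7.2. Counts of 0 allow up to 3 reads, or 0.108 CPM in replicate 1 and 0.1997 CPM in replicate 2. Levels of different miRNAs were not calibrated against each other.

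With 1 group, edgeR's quasi-likelihood contrast does not exist. Genes with at least 10 reads were tested by exact binomial tests (SciPy 1.17.1) on TMM-scaled sizes (edgeR 4.0.16, R 4.3.3), and neighbour pairs by Fisher's exact test, at an adjusted p of 0.05. A prior count of 0.5 was added before ratios were taken. On simulated counts of 556 genes, 56 of 100 genes at 2-fold, 53 of 100 at 0.5-fold and 7 of 356 unchanged genes were called, and of 82 pairs 13 of 20 shifted 2-fold and 0 of 62 unchanged. These simulations held no spread beyond counting noise.

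Genes were named by a rule: the pair, Mir21a, the 3 genes above and below each member, the 3 nearest in level, miRNA genes within 500 kb, Mir145b, the top 2 of each list, and the 3 largest and smallest pair shifts. A few further genes of the lists are named. The members and lists were chosen with earlier results of these data known. As alternatives, library totals, DESeq2 1.42.0 size factors, other filters and distances, either-strand reads and single libraries were used.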

Additional observations from a re-analysis of the deposited data

Results flagged for a closer look

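Reads that mapped to several places, which were not used for the levels of Mir143 and Mir145a, numbered 18382947 in replicate 1 and 5599235 in replicate 2. The opposite-strand column held 843574 and 244513 reads. Both drew attention because they lie far above the 3 reads that a count of 0 allows, with no control libraries to set them against. Of the opposite-strand reads, 99.9% in each library lay on genes overlapped by a miRNA gene of the other strand that has reads of its own, so they are largely the same reads as in the same-strand totals. The remainder was 429 reads in replicate 1 and 129 in replicate 2. None of the opposite-strand reads fell on Mir143 or Mir145a, and neither hairpin shares 20 bases with another annotated transcript.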

How the results depend on the processing

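Of 44 alternatives, 7 moved a value and 3 reversed it. The others say less than their number, since with 2 libraries a single one always lies within 1 SD of their mean, and either-strand reads cannot alter the ratio of genes without opposite-strand reads. The reversals were those of scaling: by library totals the log2 ratio of replicate 1 over replicate 2 was 0.77 for Mir143 and 0.17 for Mir145a, and without Mir21a in the totals it was 0.041 for Mir143. Without Mir21a in the totals the levels were 78609.8 CPM for Mir143 and 2460.1 CPM for Mir145a, since the totals are then smaller. Among genes without a near-identical copy, fewer of which are ranked, Mir143 ranked 3 and Mir145a 50, and 34 of 51 pairs were called. With single libraries Mir143 ranked 3 to 4 and Mir145a 54 to 62, the levels ran from 36022 to 61345 CPM for Mir143 and from 1362.5 to 1530.4 CPM for Mir145a, and the ratio from 26.4 to 40.1. By library totals 330 genes were called, 304 higher and 26 lower in replicate 1, against 231 with TMM, 94 higher and 137 lower. No paired analysis was possible because the libraries form a single group. With 2 libraries no outlying sample can be tested for, and counting depth does not limit either member.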

Other observations

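Ratios of each member to other single genes need no scaling. Mir143 had 5.26 reads for each read of Mir378a in replicate 1 and 5.52 in replicate 2, 288 and 269 for each of the endothelial Mir126a, and 286 and 295 for each of the blood-cell Mir142. Mir143 stood at -0.04 on the log2 scale relative to the median of all tested genes, so it keeps a near-constant ratio to any gene close to that median. Its ratio to others moved, by a log2 shift (replicate 1 minus replicate 2) of 1.98 against Mir21a, 1.03 against Mir22, 0.61 against Mir31, -0.55 against Mir206 and -0.20 against Mir214. Mir145a had 0.0491 reads for each read of Mir31, a miRNA of muscle satellite cells, in replicate 1 and 0.0486 in replicate 2, a shift of 0.01 with a counting standard error of 0.01. Its ratio moved by 1.38 against Mir21a, 0.43 against Mir22, -0.50 against Mir126a, -0.65 against Mir142, -0.67 against Mir378a, -0.80 against Mir214 and -1.15 against Mir206. These values describe 2 libraries and were not tested.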
